A study of Arabidopsis thaliana with 12 samples.

Results

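The drought response of wild-type leaves was read from 6 of the 12 RNA-seq libraries of this series, 3 from *Arabidopsis thaliana* plants deprived of water (WT-drought) and 3 from watered plants (WT-control). Both groups are the wild type Columbia-0 and carry no transgene, and the members were taken from the genotype and treatment given in the sample titles. The remaining 6 libraries come from plants that carry *MtPHD6*, a gene of *Medicago truncatula* for a PHD-finger protein, kept under the same treatments (PHD6-drought and PHD6-control), and they enter below only where the drought differences of both genotypes are compared. Seedlings were raised on medium, moved to soil and irrigated until water was withheld, and rosette leaves were harvested as 3 biological replicates per group. The records label every library, watered ones included, with 10 days after drought, while the study's methods give a shorter time, so the length of the stress is not settled here. Each sample is a mixture of all leaf cells of many plants, in which fewer cells of a type and less RNA per cell cannot be told apart.

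Leaves that lose water close their stomata under the control of abscisic acid (ABA). ABA binds receptors of the PYR/PYL family, which then inhibit clade A protein phosphatases (PP2Cs) and so free SnRK2 kinases to phosphorylate ion channels and ABF transcription factors. A separate, ABA-independent arm runs through CBF/DREB factors, which bind the dehydration-responsive element upstream of genes for protective proteins. Salicylic acid (SA) is best known as the hormone of defence against pathogens, and low sugar supply, touch, auxin and metal supply each have target genes of their own in leaves.

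Counts over the 36061 named genes ran from 18816144 to 23384147 per library in WT-drought and from 17839925 to 20430323 in WT-control. Values are given as CPM, counts scaled to a common library size after TMM normalization, in the order of replicates 1, 2 and 3, and each change as the log2 fold change of WT-drought over WT-control. Of 19681 genes tested with edgeR, 2406 rose and 1413 fell at a Benjamini-Hochberg adjusted p under 0.05, which is 12.2% and 7.18% of the genes tested. With upper-quartile scaling 2023 rose and 2292 fell, so the share of rises among the calls was 46.9%, against 63.0% with TMM, and the median of all genes moved to -0.08, against -0.01. Omitting WT-control replicate 2 gave 2361 falls and omitting WT-control replicate 3 gave 877, while omitting WT-drought replicates 1, 2 or 3 gave 815, 667 or 658 falls. The rises numbered 1595 when WT-drought replicate 3 was omitted. By the study's own rule, more than 2-fold with p under 0.05 before adjustment, 953 rose and 275 fell, 4.84% and 1.4% of the genes tested. Called rises were the larger changes, with a median of 1.61-fold and 255 genes over 4-fold, while called falls had a median of 1.44-fold and 20 genes over 4-fold. The groups did not overlap in any of the 2406 genes that rose and in 1405 of those that fell, against 37.6% of all genes tested.

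**Figure D1:**
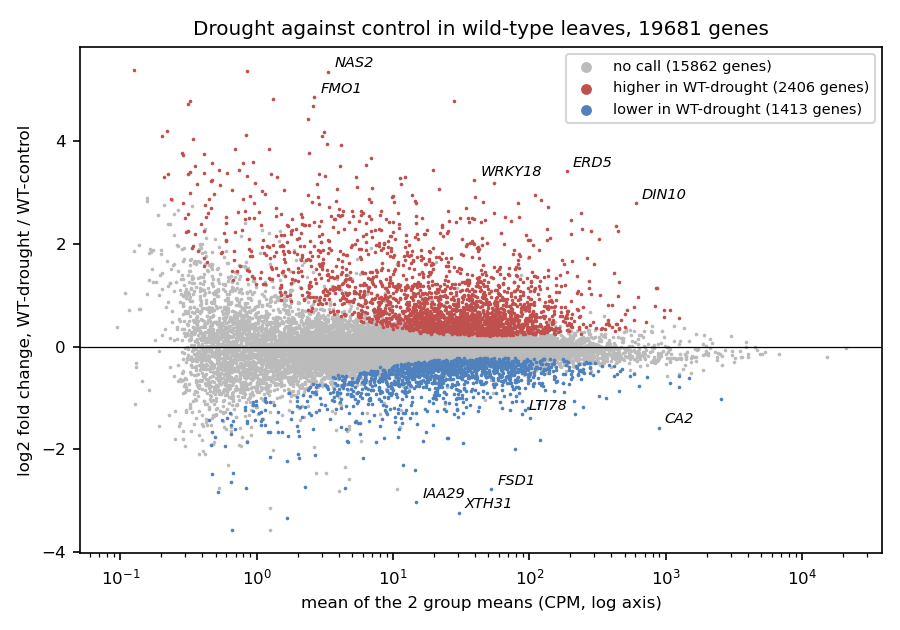
Log2 fold change of WT-drought over WT-control against the mean of the group means in CPM (log axis), 1 point per gene tested. Red points are the 2406 genes called higher and blue points the 1413 called lower at an adjusted p under 0.05, and the points farthest from 0 lie on the side of the rises.

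The samples looked like green leaf tissue. The 6 mesophyll markers summed to 43837 to 47918 CPM in WT-drought and 39643 to 59959 CPM in WT-control, 12 of 13 root markers were too low to be tested with 6 of them at 0 in every library, and the 9 seed markers together stayed at or under 0.215 CPM. The root markers summed to 69.1 to 138 CPM in WT-drought and 47.1 to 96.1 CPM in WT-control, nearly all of it from the beta-glucosidase gene *BGLU23*, at 68.5, 82 and 137 CPM in WT-drought and 46.7, 83.7 and 95.3 CPM in WT-control and not called (0.35). Watered libraries differed more among themselves than drought libraries did. Between WT-control replicate 2 and replicates 1 and 3, 35.8% and 30.7% of genes differed by more than 3 standard deviations of counting noise, against 14.9% between replicates 1 and 3 and 8.98 to 12.9% between WT-drought libraries. By the correlation of log2 levels replicates 1 and 3 were the pair least alike (r = 0.975, against 0.979 and 0.980 for the pairs with replicate 2), so replicate 2 was not apart by every measure. It had the lowest level of the group in 6 of 6 mesophyll markers and the highest in 8 of 8 tested flower markers, which summed to 38.8 CPM there, against 8.49 and 20.3 CPM in WT-control replicates 1 and 3. None of the marker genes of phloem, xylem or epidermis passed the test, while *KAT1* of the guard cell markers and *CA1* of the mesophyll markers fell. When WT-control replicate 2 was omitted 5 of 6 mesophyll, 5 of 9 guard cell and 2 of 4 epidermis markers fell, and when any other library was omitted no guard cell marker did. With replicate numbers as a block 2 guard cell, 1 epidermis and 1 xylem marker fell. The part of these marker differences in the results below was not tested beyond the fits without single libraries.

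The ABA receptors were on the side of the rises. Of 14 PYR/PYL genes 9 were expressed highly enough to be tested, 4 rose and none fell, and the median log2 fold change was 0.30 (all genes -0.01). *PYL4* (AT2G38310, chr2:16049918-16051356 in TAIR10.1) had 95.6, 82.4 and 95.9 CPM in WT-drought, against 30.6, 26.7 and 35.9 CPM in WT-control (log2 fold change 1.56, standard error 0.12, adjusted p = 8.9e-05). *PYL5* (AT5G05440) had 52.9, 36.8 and 40.6 CPM in WT-drought, against 7.85, 6.2 and 6.76 CPM in WT-control, a 6.27-fold rise (log2 fold change 2.65, standard error 0.16, adjusted p = 3.7e-05). In both genes, as in all 2406 that rose, every WT-drought library lay above every WT-control library. *PYL6* (1.9) and *PYR1* (0.53) rose as well, whereas *PYL1* (0.05), *PYL2* (0.14), *PYL7* (-0.06), *PYL8* (-0.01) and *PYL9* (0.30) passed no test.

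The phosphatases that these receptors inhibit were on the side of the falls. Of 9 clade A PP2Cs 7 were tested, 3 fell and none rose, with a median of -0.45. *ABI1* (AT4G26080) had 46.1, 49.3 and 49.3 CPM in WT-drought, against 74.5, 61.8 and 61.3 CPM in WT-control (log2 fold change -0.45, standard error 0.09, adjusted p = 0.00914), and *ABI2* (-0.52) and *HAB1* (-0.42) fell to a similar extent. *HAI1* (AT5G59220), whose transcript usually climbs with ABA, had 0.781, 1.26 and 1.17 CPM in WT-drought, against 7.85, 3.98 and 0.745 CPM in WT-control and was not called (log2 fold change -1.97, standard error 0.67, adjusted p = 0.0742). The watered libraries of *HAI1* spread over a wide range, with replicate 3 below all WT-drought libraries and replicates 1 and 2 above them. With replicate numbers as a block *HAI1* fell (adjusted p = 0.0489). *PP2CA* was not called either (0.08), and its WT-drought replicate 1 stood above the rest at 88.7 CPM. The number of PP2Cs that fell was 1 without WT-control replicate 1, WT-drought replicate 2 or WT-drought replicate 3, and 2 without WT-drought replicate 1. *ABI1* kept its call in every alternative, whereas *ABI2* and *HAB1* did not.

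The calls among ABA synthesis genes were falls. Of 11 genes on the synthesis list 8 were tested, none rose and 2 fell (25%, against 7.18% of all genes tested). *NCED3* (AT3G14440, chr3:4831286-4834015), the dioxygenase that limits ABA synthesis in drying leaves, had 3.17, 2.52 and 2.81 CPM in WT-drought, against 6.29, 4.8 and 4.93 CPM in WT-control (log2 fold change -0.91, standard error 0.19, adjusted p = 0.0102), with every WT-drought value below every WT-control value. *ABA4*, which acts on the xanthophyll precursors, fell slightly (-0.31). Without WT-drought replicate 2 no gene of the list was called, and without WT-control replicate 2, 1 rose and 3 fell. *NCED3* was not called when all 12 libraries were fitted together. Among the 4 genes for ABA 8'-hydroxylases, which break ABA down, *CYP707A3* rose, with 7.71, 6.67 and 8.44 CPM in WT-drought, against 3.55, 2.99 and 4.7 CPM in WT-control (log2 fold change 1.03, standard error 0.19, adjusted p = 0.00689). Of the 8 SnRK2 kinases and ABF factors listed, *OST1* (0.63), the guard cell kinase, and *SNRK2.3* (0.24) rose, and *ABF2* (-0.32) and *ABF3* (-0.52) fell. When WT-drought replicate 1 or 2 was omitted neither kinase was called. Only 1 of the factors was called when WT-control replicate 1 or any 1 of the WT-drought libraries was omitted.

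Targets of ABA and of the CBF/DREB arm held calls in both directions. Of 27 dehydration and ABA target genes 25 were tested, with a median of 0.03. Of these 8 fell (32%, against 7.18% of all genes tested) and 4 rose (16%, near the 12.2% of all genes tested). *LTI78* (AT5G52310, also known as RD29A, chr5:21240717-21243644), a marker of dehydration and cold, had 56.3, 44.8 and 51.9 CPM in WT-drought, against 125, 119 and 135 CPM in WT-control (log2 fold change -1.31, standard error 0.10, adjusted p = 9.3e-05). *COR15A* (AT2G42540), which encodes a chloroplast protein that protects membranes, had 15.9, 7.89 and 10.7 CPM in WT-drought, against 31.9, 38.4 and 47.2 CPM in WT-control (log2 fold change -1.77, standard error 0.24, adjusted p = 0.00114). *KIN2* (-1.0), *COR15B* (-1.23) and *KIN1* (-1.41) of the same cold-regulated group fell as well. In *LTI78*, *COR15A* and *KIN2* all WT-drought libraries were below all WT-control libraries.

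The rises on this list were in other genes. *ERD15* (AT2G41430), a small protein first found as early responsive to dehydration, had 1239, 1087 and 1210.4 CPM in WT-drought, against 582, 518 and 503 CPM in WT-control (log2 fold change 1.14, standard error 0.11, adjusted p = 0.000252). *ERD4* (0.44), *ERD7* (0.31) and the dehydrin gene *ERD14* (0.35) rose by less, and unlike *ERD15* each lost its call in several alternatives. *RAB18* (-0.74), *RD26* (0.86), *COR47* (0.32) and *ERD10* (0.13) passed no test. With replicate numbers as a block 7 of these genes rose and 11 fell, with *RAB18* lower (adjusted p = 0.00646) and *RD26* (adjusted p = 0.00722) and *COR47* (adjusted p = 0.0302) higher. Only 1 rose without WT-control replicate 3, WT-drought replicate 1 or WT-drought replicate 2. Falls numbered 4 when WT-drought replicate 2 or 3 was omitted.

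In the CBF/DREB arm 1 factor changed. Of 9 genes 6 were tested and 1 fell, *DREB1A* (AT4G25480, also known as CBF3), which had 1.17, 1.05 and 1.22 CPM in WT-drought, against 9.52, 6.33 and 7.51 CPM in WT-control, 6.77-fold higher in WT-control (log2 fold change -2.76, standard error 0.22, adjusted p = 9.7e-05). *CBF1* (-1.31) and *CBF2* (-0.81) lay on the same side without a call, and *DREB2A*, the drought-induced member, was not called (0.33). Without WT-control replicate 2, 3 of the 6 fell. The dehydration-responsive element, GCCGAC or ACCGAC on either strand, was present within 250 bases upstream of the annotated start of 9 of the 27 dehydration genes (33.3%), against 6.89% of all 36005 genes with such a sequence. The stretches of *COR15A* and *LTI78* are shown because both fell and both hold the element, which is in capitals (TAIR10.1, RefSeq annotation, read 5' to 3' on the gene's strand and ending at the base before the annotated start).
*COR15A* (chr2:17712331-17712490, minus strand): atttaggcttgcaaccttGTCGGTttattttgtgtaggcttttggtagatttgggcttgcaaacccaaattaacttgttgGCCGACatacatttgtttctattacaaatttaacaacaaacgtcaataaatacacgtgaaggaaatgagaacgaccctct
*LTI78* (chr5:21240557-21240716, plus strand): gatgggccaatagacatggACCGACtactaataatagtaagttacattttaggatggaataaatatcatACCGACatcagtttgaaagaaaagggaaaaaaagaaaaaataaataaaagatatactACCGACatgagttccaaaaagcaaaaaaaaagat
The element was upstream of 8.15% of the genes that rose, 7.29% of those that fell and 7.85% of those tested. A match describes these letters and is no evidence that a factor was bound.

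Of 9 proline genes 2 rose and 3 fell. *ERD5* (AT3G30775, chr3:12448636-12451556), the mitochondrial proline dehydrogenase that starts proline breakdown, had 311, 343 and 374 CPM in WT-drought, against 29.4, 27.2 and 40.2 CPM in WT-control, a 10.6-fold rise (log2 fold change 3.41, standard error 0.16, adjusted p = 2.8e-05). The second dehydrogenase, *POX2*, rose too (1.52). *P5CS1* (AT2G39800), the enzyme that makes proline under stress, had 52.2, 46.9 and 44.9 CPM in WT-drought, against 79, 76.5 and 74.4 CPM in WT-control (log2 fold change -0.68, standard error 0.08, adjusted p = 0.000541), and the transporters *PROT2* (-0.70) and *PROT3* (-1.45) fell. These 5 calls were the same in number in every fit without a single library.

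Of 8 galactinol and raffinose synthase genes 6 were tested, 1 rose and 3 fell. *GOLS2* (AT1G56600), the galactinol synthase most often used as a drought marker, had 1.95, 1.59 and 2.55 CPM in WT-drought, against 5.64, 11 and 4.93 CPM in WT-control (log2 fold change -1.84, standard error 0.34, adjusted p = 0.0057). *GOLS3* (-1.67) and the raffinose synthase *SIP1* (-0.53) also fell. *DIN10* (AT5G20250, chr5:6833564-6836862), a raffinose synthase relative that is known for its induction by darkness and sugar shortage, had 1184, 942 and 1040.1 CPM in WT-drought, against 164, 119 and 172 CPM in WT-control (log2 fold change 2.8, standard error 0.16, adjusted p = 3.7e-05). Without WT-drought replicate 2 or 3 only 1 gene of this list fell.

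Genes of sugar starvation and darkness rose together. Of 25 on the list 24 were tested, 17 rose and none fell, with a median of 1.09, and 16 to 19 rose in the fits without a single library. *STP1* (AT1G11260), a monosaccharide transporter that sugar represses, had 760.2, 663 and 729 CPM in WT-drought, against 152, 117 and 154 CPM in WT-control (log2 fold change 2.35, standard error 0.13, adjusted p = 3.0e-05). *ASN1* (AT3G47340), the asparagine synthetase of dark-treated leaves, had 47.5, 52.1 and 77.2 CPM in WT-drought, against 14, 16.4 and 13.2 CPM in WT-control (log2 fold change 2.01, standard error 0.18, adjusted p = 0.000191). Neither gene had overlapping groups, and no other gene that rose had them.

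Class II trehalose phosphate synthases, a family without clear synthase activity whose transcripts follow the carbon status, were all higher in the 4 members listed. *TPS8* (1.36), *TPS9* (1.2), *TPS10* (1.31) and *TPS11* (1.45) rose, and *TPS11* (AT2G18700) had 165, 143 and 152 CPM in WT-drought, against 62.7, 53.4 and 51.8 CPM in WT-control (log2 fold change 1.45, standard error 0.10, adjusted p = 6.0e-05). The glutamate dehydrogenases *GDH1* (0.87) and *GDH2* (1.05), the branched-chain aminotransferase *BCAT2* (1.21) and *MCCA* (0.95) of leucine breakdown rose too. *DYL1* (AT1G28330), a dormancy-associated protein, had 360.5, 370.3 and 406 CPM in WT-drought, against 161, 182 and 175 CPM in WT-control (log2 fold change 1.13, standard error 0.09, adjusted p = 0.000108). Not called were *DIN3* (0.32), *DIN4* (0.28), *MCCB* (0.10) and *IVD* (0.14), which also act in branched-chain amino acid breakdown, nor *DIN9* (0.06), *BT2* (0.59) and *BGLU30* (-0.17), the last with values of 10.7, 1.51 and 0.265 CPM in WT-drought and 12.7, 1.4 and 0 CPM in WT-control. The block gave a call to *DIN3* (adjusted p = 0.0362), *DIN4* (adjusted p = 0.0462) and *BT2* (adjusted p = 0.0109), all higher.

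**Figure D2:**
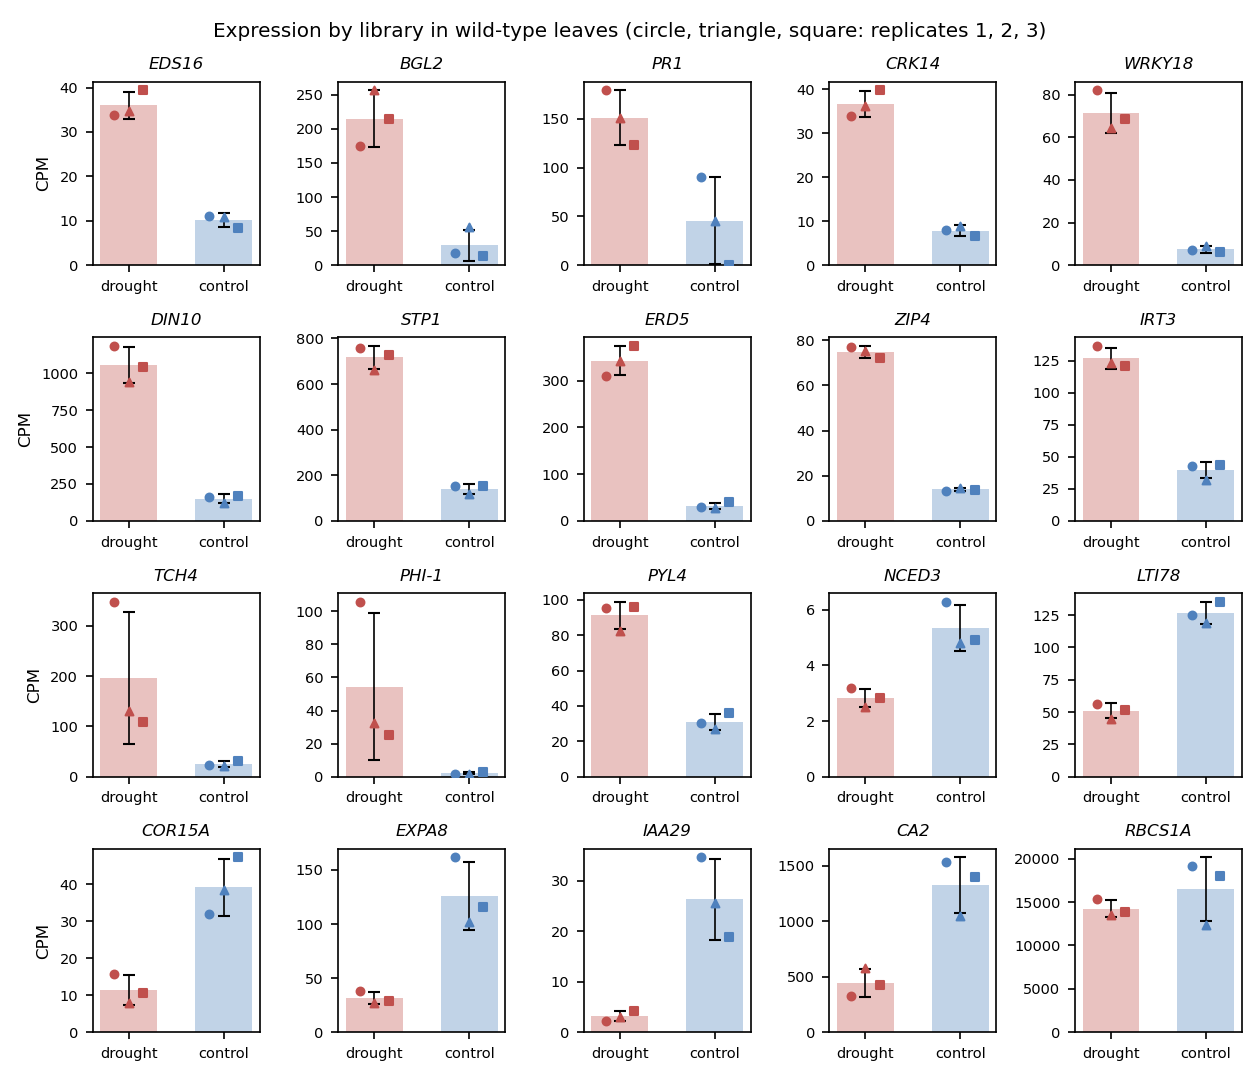
CPM of 20 genes by library, with bars for the mean of 3 libraries, whiskers for the SD and points for replicates 1 to 3 (circle, triangle, square), WT-drought left of WT-control and each axis from 0. *EDS16*, *CRK14*, *DIN10*, *ERD5* and *ZIP4* separate the groups without overlap upward and *LTI78*, *EXPA8* and *CA2* downward, while *RBCS1A* overlaps.

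Salicylic acid synthesis genes and their regulators rose in most cases. All 17 on the list were tested, 13 rose and none fell, with a median of 1.72, and the count stayed at 13 in each fit without a single library. *EDS16* (AT1G74710), the isochorismate synthase of the main synthesis route, had 33.9, 34.6 and 39.4 CPM in WT-drought, against 11.2, 10.9 and 8.37 CPM in WT-control. *EDS5* (AT4G39030), which exports isochorismate from the chloroplast, had 23.4, 25.5 and 26.9 CPM in WT-drought, against 8.71, 7.19 and 7.11 CPM in WT-control (log2 fold change 1.72, standard error 0.11, adjusted p = 5.1e-05). *PBS3*, which conjugates isochorismate to glutamate on the way to SA, rose by 1.75 on the log2 scale. In these 3 consecutive steps of the pathway each WT-drought library was above every WT-control library, as in all 2406 genes that rose.

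Their activators moved the same way. *SARD1* (AT1G73805) and *CBP60G* (AT5G26920), transcription factors that turn on *EDS16*, had log2 fold changes of 1.98 and 1.73, and the lipase-like regulators *EDS1* (1.18), *PAD4* (1.11) and *SAG101* (1.01) rose as well. *FMO1* (AT1G19250, chr1:6650476-6653195), which makes N-hydroxypipecolic acid, the mobile signal of systemic resistance, had 3.03, 8.01 and 4.35 CPM in WT-drought, against 0.215, 0.226 and 0.0573 CPM in WT-control (log2 fold change 4.86, standard error 0.53, adjusted p = 0.000443). *ALD1* (AT2G13810), the aminotransferase at the start of that route, had 4.49, 5.5 and 4.99 CPM in WT-drought, against 0.484, 0.588 and 0.573 CPM in WT-control (log2 fold change 3.17, standard error 0.22, adjusted p = 7.6e-05). Both were under 1 CPM in every watered library. The SA hydroxylases *DMR6* (AT5G24530), with 137, 173 and 162 CPM in WT-drought, against 33, 54.3 and 24 CPM in WT-control, and *DLO1* (3.16), which remove SA, rose too. The 4 genes without a call were *ICS2* (-0.43), *EPS1* (-0.31), *NDR1* (0.04) and *ACD6* (0.10).

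SA response genes followed. Of 21 tested 17 rose and none fell, with a median of 1.73. *BGL2* (AT3G57260), the glucanase also known as PR2, had 174, 257 and 215 CPM in WT-drought, against 18.3, 55.5 and 14 CPM in WT-control (log2 fold change 2.86, standard error 0.45, adjusted p = 0.00276). *PR5* (AT1G75040), a thaumatin-like protein, had 226, 281 and 200.5 CPM in WT-drought, against 28.8, 55.1 and 23.3 CPM in WT-control (log2 fold change 2.72, standard error 0.29, adjusted p = 0.000419). *PR1* (AT2G14610), the most used SA marker, had 179, 151 and 123 CPM in WT-drought, against 90.0, 45.7 and 0.630 CPM in WT-control, and although its groups did not overlap it was not called (log2 fold change 1.73, standard error 0.87, adjusted p = 0.215), and the watered libraries differed widely among themselves. With replicate numbers as a block it rose (adjusted p = 0.0352). WT-control replicate 3 was the lowest watered library in 19 of these 21 genes and in 14 of the 17 synthesis genes.

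Of the SA receptors *NPR1* and *NPR3* rose. *NPR1* (AT1G64280), the activator, had 58.2, 57.3 and 61.9 CPM in WT-drought, against 43.1, 40.4 and 36.6 CPM in WT-control (log2 fold change 0.56, standard error 0.08, adjusted p = 0.00157), and *NPR3* rose by 0.92 and *NPR4* was not called (0.24). Their partners *NIMIN1* (1.45) and *NIMIN2* (1.69), which bind *NPR1*, and the glutaredoxin *GRX480* (2.16) rose more. *AED1* (AT5G10760), a secreted protease, had 179, 257 and 221 CPM in WT-drought, against 52, 72.2 and 31.8 CPM in WT-control (log2 fold change 2.07, standard error 0.26, adjusted p = 0.000938). *WRKY54* (0.15) and *PCC1* (0.35) passed no test.

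WRKY factors carry much of the transcriptional control of SA targets. Of 67 genes of the family 51 were tested, 23 rose and 1 fell, with a median of 0.44, and that one, *WRKY3* (-0.25), is named here after its value was seen and was called in only 1 of the 6 fits without a single library, that without WT-control replicate 2. *WRKY18* (AT4G31800, chr4:15382777-15385100), a regulator of basal defence, had 82, 64.1 and 68.4 CPM in WT-drought, against 6.99, 9.18 and 6.19 CPM in WT-control, a 9.51-fold rise (log2 fold change 3.25, standard error 0.15, adjusted p = 2.8e-05). Its relative *WRKY40* (AT1G80840) had 9.81, 11.5 and 13.1 CPM in WT-drought, against 1.61, 2.62 and 1.6 CPM in WT-control (log2 fold change 2.54, standard error 0.22, adjusted p = 0.000143). *WRKY25* (AT2G30250) rose by 1.95 and *WRKY15* (AT2G23320) by 1.42. In all 4 the lowest WT-drought library was above the highest WT-control library, as in every gene that rose.

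Cysteine-rich receptor-like kinases (CRKs), membrane kinases with paired DUF26 domains outside the cell that are often induced by SA and oxidants, rose as a family. Of 38 genes 35 were tested, 24 rose and none fell, with a median of 1.05, and 17 to 26 rose in the fits without a single library. *CRK14* (AT4G23220, chr4:12154091-12156881) had 34, 36.2 and 39.8 CPM in WT-drought, against 8.01, 9.0 and 6.59 CPM in WT-control (log2 fold change 2.21, standard error 0.12, adjusted p = 3.0e-05). *CRK4* (AT3G45860) had 204, 263 and 203 CPM in WT-drought, against 46.2, 56.4 and 33.8 CPM in WT-control (log2 fold change 2.29, standard error 0.19, adjusted p = 0.000114). *CRK23* (AT4G23310) had 6.74, 8.01 and 6.0 CPM in WT-drought, against 0.914, 0.995 and 0.516 CPM in WT-control (log2 fold change 3.07, standard error 0.26, adjusted p = 0.00013), and *CRK13* (2.04) was the other one. No WT-drought library overlapped a WT-control library in any of them, which held for every gene that rose. Neighbouring CRK genes are close in sequence and reads may have been shared between them, so single members are less certain than the family.

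Position and upstream sequence of the CRKs were looked at because the family moved together. A tandem array of 18 CRK genes lies at chr4:12117491-12191704, with *CRK5* at 1 end and *CRK24* at the other, and 13 of its 18 tested members rose. A second array of 5, *CRK36* to *CRK40* at chr4:2231717-2292965, had all 5 higher, and of the 5 in another, *CRK30* to *CRK34* at chr4:6963521-6989793, 3 were tested and 2 rose. The W-box, TTGACC or TTGACT on either strand, the element that WRKY factors bind, was within 250 bases upstream of 24 of the 38 CRK genes (63.2%), against 27.4% of all genes. It was upstream of 16 of the 24 CRKs that rose and of 8 of the 14 others. On the SA lists the share was below that of all genes. There 3 of 17 synthesis genes (17.6%) and 4 of 21 response genes (19.0%) had a W-box. *CRK14* and *CRK23* are shown with the W-box in capitals.
*CRK14* (chr4:12156882-12157081, minus strand): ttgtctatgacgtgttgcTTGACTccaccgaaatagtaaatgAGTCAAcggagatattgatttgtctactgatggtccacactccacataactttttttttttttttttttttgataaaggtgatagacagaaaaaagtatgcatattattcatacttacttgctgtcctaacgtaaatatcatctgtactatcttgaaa
*CRK23* (chr4:12185219-12185368, plus strand): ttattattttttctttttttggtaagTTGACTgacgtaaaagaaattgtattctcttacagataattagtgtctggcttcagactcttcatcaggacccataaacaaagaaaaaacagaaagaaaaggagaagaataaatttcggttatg
Across all genes the W-box was upstream of 38.1% of those that rose, 24% of those that fell and 28.1% of those tested. A CAMTA site, CGCGTT or CGCGTG on either strand, was upstream of 8.19% of the genes that rose, 4.10% of those that fell and 5.27% of those tested. The ABA-responsive element, ACGTGG or ACGTGT on either strand, was upstream of 18.7%, 17.7% and 16.6% of the same sets. These shares are descriptions without a test, for 3 of the 10 motifs searched. Shares of the dehydration-responsive element and of the zinc element are given in other paragraphs.

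Genes of zinc deficiency made up a compact group of rises. Of 14 listed 11 were tested, 8 rose and none fell, with a median of 1.68, and 6 to 8 rose in the fits without a single library. *NAS2* (AT5G56080, chr5:22711141-22712441), which makes the metal ligand nicotianamine, had 5.95, 5.92 and 7.86 CPM in WT-drought, against 0.269, 0.181 and 0 CPM in WT-control (log2 fold change 5.36, standard error 0.46, adjusted p = 0.000137), the largest rise among called genes with a group mean of at least 5 CPM and no overlap. *ZIP9* (AT4G33020), a zinc transporter, had 5.32, 6.12 and 3.61 CPM in WT-drought, against 0.108, 0.271 and 0.172 CPM in WT-control (log2 fold change 4.7, standard error 0.37, adjusted p = 0.000101). Watered libraries held 0 to 6 reads of either gene, so both fold changes are imprecise.

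Other transporters rose over a clear basal level. *ZIP4* (AT1G10970, chr1:3665087-3667139) had 77.1, 75.3 and 71.9 CPM in WT-drought, against 13.3, 14.7 and 13.8 CPM in WT-control, a 5.37-fold rise (log2 fold change 2.42, standard error 0.07, adjusted p = 4.2e-06). *IRT3* (AT1G60960) had 137, 123 and 121 CPM in WT-drought, against 43, 32.3 and 43.8 CPM in WT-control (log2 fold change 1.68, standard error 0.12, adjusted p = 8.3e-05), and *ZIP5* (AT1G05300) had 66.1, 56.8 and 62.1 CPM in WT-drought, against 18.4, 10.9 and 16.3 CPM in WT-control (log2 fold change 2.02, standard error 0.17, adjusted p = 0.00012). Replicates of *ZIP4* differed by little in either group. *ZIP3* (2.28), *ZIP1* (0.47) and the zinc exporter *HMA2* (0.40) rose as well. The transcription factors *bZIP19* (0.03) and *bZIP23* (-0.23), which sense zinc and switch on these genes, were not called, and neither was *NAS4* (-0.01). The element these factors bind, TGTCGACA, which is its own reverse complement, was within 250 bases upstream of 4 of the 14 genes, *ZIP4*, *IRT3*, *ZIP10* and *ZIP12*, or 28.6%, against 0.233% of all genes. Among the genes that rose only *ZIP4* and *IRT3* hold it, while *NAS2*, *ZIP9*, *ZIP5*, *ZIP3*, *ZIP1* and *HMA2* do not. *ZIP10* was at 0 in all 6 libraries and *ZIP12* was too low to be tested, so the stretches of *ZIP4* and *IRT3* are shown, with the element in capitals.
*ZIP4* (chr1:3667140-3667219, minus strand): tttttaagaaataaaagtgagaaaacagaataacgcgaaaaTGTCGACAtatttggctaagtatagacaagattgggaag
*IRT3* (chr1:22447300-22447379, minus strand): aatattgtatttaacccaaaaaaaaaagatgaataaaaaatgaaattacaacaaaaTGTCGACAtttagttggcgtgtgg
The element begins 39 bases before the annotated start in *ZIP4* and 24 bases before it in *IRT3*.

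Rapid response genes of touch and wounding were higher under drought. Of 21 on the list 20 were tested, 14 rose and none fell, with a median of 1.27, and 13 to 16 rose in the fits without a single library. *TCH4* (AT5G57560, chr5:23307006-23308680), a xyloglucan endotransglucosylase first found in touched plants, had 348, 130.3 and 109.6 CPM in WT-drought, against 22.7, 21.8 and 31.9 CPM in WT-control (log2 fold change 2.95, standard error 0.43, adjusted p = 0.00173). *PHI-1* (AT1G35140), of the EXORDIUM family, had 106, 32.3 and 25.2 CPM in WT-drought, against 1.88, 1.4 and 2.75 CPM in WT-control (log2 fold change 4.78, standard error 0.63, adjusted p = 0.00115). WT-drought replicate 1 was far above the other drought libraries in both genes, and the other WT-drought libraries were still above all WT-control ones. The calmodulin-like *TCH3* (AT2G41100), with 336, 305 and 356 CPM in WT-drought, against 75.7, 84.8 and 57.5 CPM in WT-control, showed no such gap (log2 fold change 2.19, standard error 0.14, adjusted p = 5.8e-05). The zinc finger genes *SZF1* (1.72), *CZF1* (1.03) and *STZ* (1.81) rose too, as did *WRKY33* (1.27) and *ERF6* (0.89). *TCH2* (0.57), *RHL41* (1.02) and *ZAT6* (0.17) were not called, though with replicate numbers as a block *TCH2* (adjusted p = 0.0104) and *RHL41* (adjusted p = 0.00945) rose.

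Cell wall genes divided by family. Alpha-expansins, which loosen the wall in growing cells, were on the side of the falls, and expansin-like A genes rose. Of 14 expansin genes tested 7 fell, all alpha-expansins, and 3 rose, all expansin-like. *EXPA8* (AT2G40610) had 38.4, 27.6 and 29.4 CPM in WT-drought, against 161, 102 and 115 CPM in WT-control (log2 fold change -1.99, standard error 0.19, adjusted p = 0.00023), and *EXPA1* (AT1G69530) had 115, 141 and 159.6 CPM in WT-drought, against 340.2, 263 and 266 CPM in WT-control (log2 fold change -1.06, standard error 0.15, adjusted p = 0.00133). *EXPA3* (-0.96), *EXPA10* (-0.85) and *EXPA5* (-0.31) fell as well. *EXLA1* (AT3G45970) had 184, 116 and 129.6 CPM in WT-drought, against 23.4, 17.3 and 21 CPM in WT-control (log2 fold change 2.8, standard error 0.19, adjusted p = 6.0e-05), and *EXLA2* (0.69) and *EXLA3* (1.33) rose. There were 4 falls when WT-drought replicate 2 or 3 was omitted and 9 when WT-control replicate 2 was.

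Xyloglucan endotransglucosylase/hydrolases, which cut and rejoin the wall's xyloglucan chains, moved both ways. Of 32 genes 23 were tested, 10 rose and 3 fell, with a median of 0.52. *XTH25* (AT5G57550) had 23.6, 23.6 and 19.2 CPM in WT-drought, against 2.15, 2.53 and 2.01 CPM in WT-control (log2 fold change 3.3, standard error 0.14, adjusted p = 2.8e-05), and *XTH24* (AT4G30270) had 119, 111 and 118 CPM in WT-drought, against 40.3, 52.6 and 38.7 CPM in WT-control (log2 fold change 1.4, standard error 0.12, adjusted p = 0.000131). *XTH31* (AT3G44990, chr3:16446935-16448844), a xyloglucan hydrolase, had 5.56, 6.0 and 5.84 CPM in WT-drought, against 67.8, 31.5 and 64.9 CPM in WT-control, 9.4-fold higher in WT-control (log2 fold change -3.23, standard error 0.28, adjusted p = 0.000157). It was the largest fall among called genes with a group mean of at least 5 CPM and no overlap. Only 1 of the 3 falls was called without WT-control replicate 3, WT-drought replicate 2 or WT-drought replicate 3. *TCH4*, described above, and *XTH16* (1.33) belong to the members that rose.

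Auxin-induced growth genes fell. Of 16 SAUR genes, small proteins that promote cell expansion, 15 were tested, 9 fell and none rose, with a median of -0.99. *SAUR22* (AT5G18050) had 2.0, 1.85 and 2.28 CPM in WT-drought, against 8.55, 9.32 and 4.24 CPM in WT-control (log2 fold change -1.86, standard error 0.30, adjusted p = 0.0029), and *SAUR20* (AT5G18020) had 4.2, 4.49 and 4.88 CPM in WT-drought, against 15.1, 11.4 and 9.51 CPM in WT-control (log2 fold change -1.41, standard error 0.18, adjusted p = 0.00101). *SAUR23* (-1.46) and *SAUR24* (-1.27) of the same tandem array on chromosome 5 fell too, and since these copies are nearly alike their reads may not have been told apart. Of 25 Aux/IAA repressors, themselves induced by auxin, 20 were tested, 5 fell and 1 rose. *IAA29* (AT4G32280, chr4:15583332-15584903) had 2.29, 3.1 and 4.3 CPM in WT-drought, against 34.6, 25.6 and 18.8 CPM in WT-control (log2 fold change -3.03, standard error 0.27, adjusted p = 0.000169). *IAA5* (-2.23) and *IAA1* (-1.13) fell, and *IAA18* was the one that rose (0.35), and 3 falls were called when WT-drought replicate 2 or 3 was omitted. *PRE1* (AT5G39860), a growth-promoting helix-loop-helix protein, had 2.44, 4.32 and 5.2 CPM in WT-drought, against 27.6, 13.9 and 17.6 CPM in WT-control (log2 fold change -2.3, standard error 0.31, adjusted p = 0.00124), and *IAGLU* (AT4G15550), a glucosyltransferase for auxin, fell by 1.85 on the log2 scale.

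**Figure D3:**
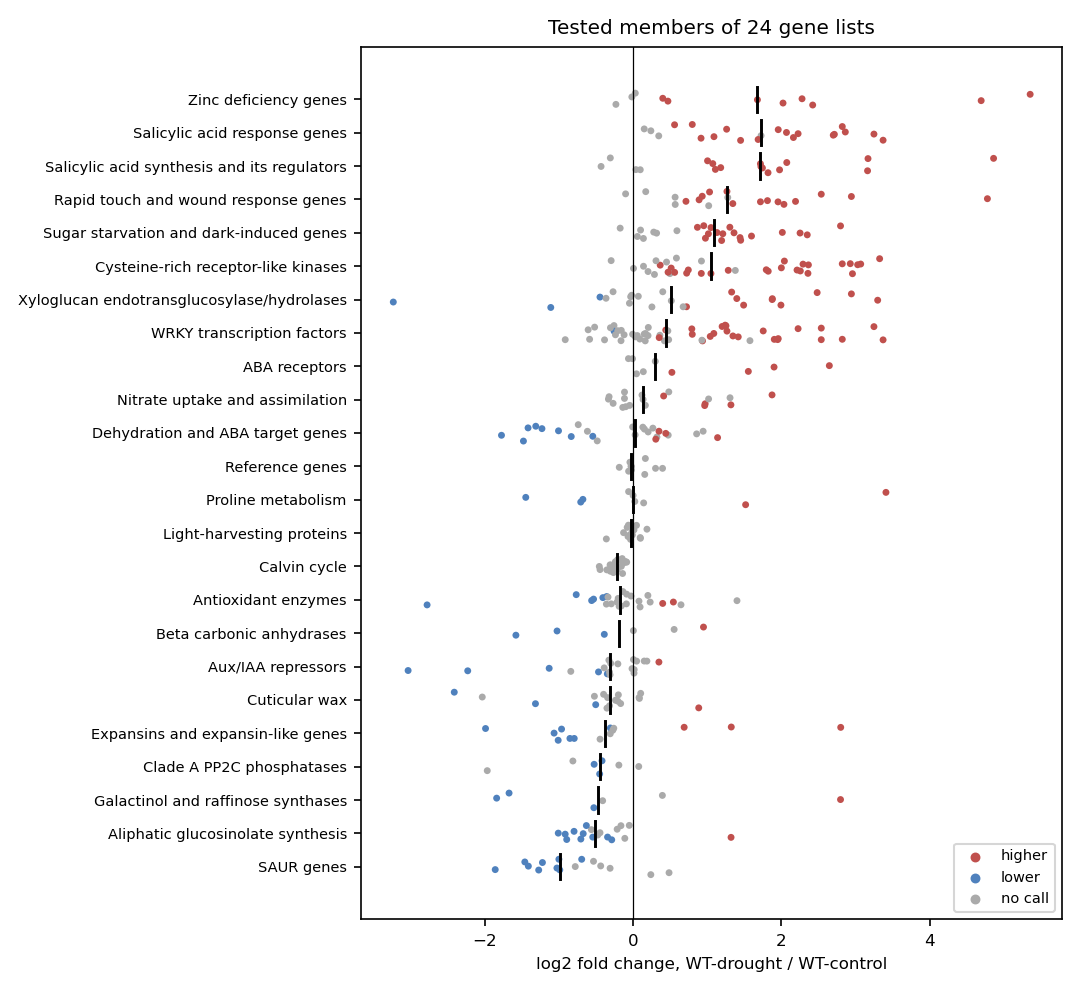
Log2 fold change of WT-drought over WT-control for the tested members of 24 gene lists, 1 point per gene, red for higher, blue for lower and grey for no call, with a black bar at each list's median. The median runs from 1.73 for salicylic acid response genes to -0.99 for SAUR genes, and lists such as ABA target genes and proline metabolism hold calls on both sides of 0.

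Photosynthesis transcripts passed few tests. Of 19 Calvin cycle genes none was called, with a median of -0.21, but without WT-control replicate 2, 18 fell, against 0 without any other library. *RBCS1A* (AT1G67090), the main small subunit of Rubisco, had 15349, 13515 and 13868 CPM in WT-drought, against 19161, 12327 and 17942 CPM in WT-control (log2 fold change -0.21, standard error 0.22, adjusted p = 0.573). WT-control replicate 2 was the lowest watered library in all 19 genes, and in 14 of them replicate 1 was the highest. The nuclear photosystem and electron transport genes behaved alike, with 2 of 30 lower (*PSB28* (-0.47) and *FD1* (-0.52)) and 22 lower without WT-control replicate 2, but none was called lower when any other library was omitted. Of 16 light-harvesting genes none was called, with at most 1 lower in any fit without a single library. Of 13 chlorophyll synthesis genes tested none was called, and 6 fell without WT-control replicate 2.

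Beta carbonic anhydrases, which supply CO2 and bicarbonate in the leaf, stood out from this pattern. Of 6 genes 3 fell and 1 rose, in every fit without a single library. *CA2* (AT5G14740) had 329, 579 and 425 CPM in WT-drought, against 1533, 1051 and 1398 CPM in WT-control (log2 fold change -1.58, standard error 0.22, adjusted p = 0.00143). *CA1* (AT3G01500), the chloroplast form, had 1503, 1850.3 and 1694 CPM in WT-drought, against 3939, 2486 and 3836 CPM in WT-control (log2 fold change -1.02, standard error 0.19, adjusted p = 0.00686). WT-control replicate 2 was again the lowest watered library in both, yet above every WT-drought library. *BCA5* (-0.39) fell and *BCA6* (0.95) rose, while *BCA4* was not called (0.01).

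**Figure D4:**
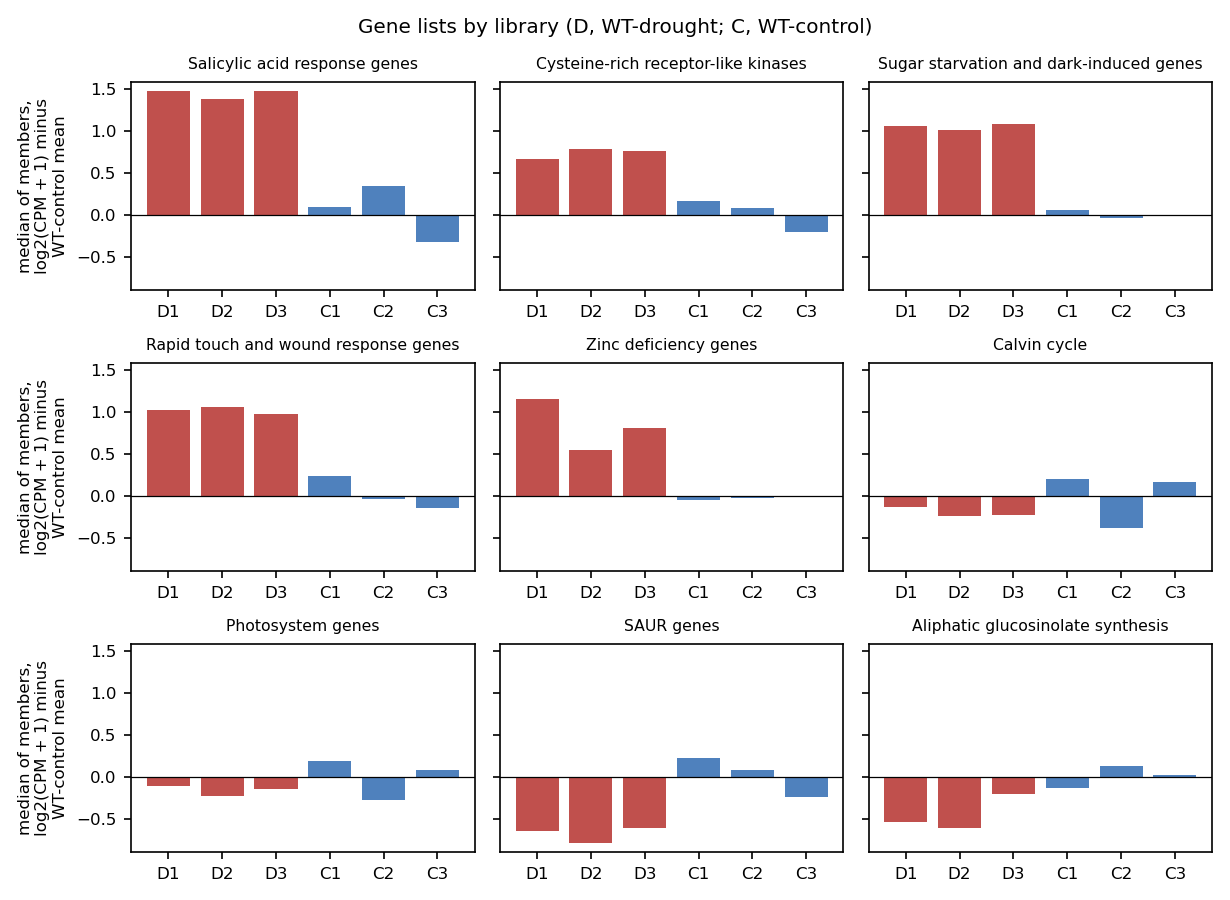
Median over list members of log2(CPM + 1) minus the WT-control mean, by library (D1 to D3, WT-drought replicates, in red, and C1 to C3, WT-control replicates, in blue). All 3 drought libraries stand high in the salicylic acid, receptor kinase, sugar starvation, touch and zinc lists, while the Calvin cycle has its lowest bar in WT-control replicate 2.

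Of 19 aliphatic glucosinolate genes 18 were tested, 10 fell and 1 rose, with a median of -0.51. *MYB28* (AT5G61420), the main activator of the pathway, had 51.9, 45.6 and 52.7 CPM in WT-drought, against 98, 93 and 91.9 CPM in WT-control (log2 fold change -0.91, standard error 0.08, adjusted p = 0.000149), and the sulfotransferase *SOT18* (AT1G74090) had 19.2, 20.0 and 24.9 CPM in WT-drought, against 43, 42.3 and 43.3 CPM in WT-control (log2 fold change -1.01, standard error 0.10, adjusted p = 0.000313). *MYB29* (-0.89) and *UGT74C1* (-0.70) fell and *MAM3* rose (1.32). WT-drought replicate 3 was the highest drought library in all 18 genes, and 6 falls were called when WT-control replicate 3 was omitted. Of 15 flavonoid genes tested 4 fell and none rose, among them the chalcone isomerase *TT5* (-0.92) and the flavonol synthase *FLS1* (-0.88), and 2 fell without WT-drought replicate 2.

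Of 17 cuticular wax genes 3 fell and 1 rose, with a median of -0.32, and without WT-control replicate 2, 8 fell. *CER1* (AT1G02205), which makes the alkanes of the wax, had 127, 143 and 101 CPM in WT-drought, against 322, 269 and 333 CPM in WT-control (log2 fold change -1.31, standard error 0.14, adjusted p = 0.000387). *WSD1* (AT5G37300), the wax ester synthase, had 4.49, 5.16 and 4.09 CPM in WT-drought, against 21.2, 25.7 and 26.5 CPM in WT-control (log2 fold change -2.41, standard error 0.13, adjusted p = 3.0e-05). Groups stood apart in both genes, as in 1405 of the 1413 that fell. *DEWAX* (0.89), a repressor of wax genes, was the one that rose, and *MYB96*, the ABA-responsive activator of wax synthesis, was not called (0.10).

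Antioxidant enzymes held more falls than rises. Of 27 genes 26 were tested, 6 fell and 2 rose, with a median of -0.17, and 3 falls were called when WT-drought replicate 1 was omitted and 12 when WT-control replicate 2 was. *FSD1* (AT4G25100), the iron superoxide dismutase that plants use when copper is scarce, had 18.8, 13 and 8.07 CPM in WT-drought, against 93.5, 104 and 76.9 CPM in WT-control (log2 fold change -2.78, standard error 0.25, adjusted p = 0.000186). *CSD2* (AT2G28190), the copper/zinc form of the chloroplast, had 454, 505 and 446 CPM in WT-drought, against 849, 678 and 859.6 CPM in WT-control (log2 fold change -0.77, standard error 0.12, adjusted p = 0.00275). *CSD1* (-0.41) and their copper chaperone *CCS* (-0.53) fell too, so iron and copper/zinc forms were lower alike. *CAT2* (-0.29) was not called, and *GPX5* (0.55) and *GPX8* (0.40) rose.

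With all 6 libraries the calls were rises among nitrate genes and falls among phosphate starvation genes. Of 19 nitrate genes 5 rose (26.3%, against 12.2% of all genes tested) and none fell, with a median of 0.14. Without WT-control replicate 2, 4 nitrate genes fell, and 1 fell with DESeq2, with upper-quartile scaling or with the block. *NIA1* (AT1G77760), a nitrate reductase, had 119.6, 127 and 119 CPM in WT-drought, against 32.4, 26.4 and 41.2 CPM in WT-control (log2 fold change 1.88, standard error 0.14, adjusted p = 9.3e-05), and *GLN1;1* (AT5G37600), a cytosolic glutamine synthetase, had 119.7, 124 and 124 CPM in WT-drought, against 47, 55.3 and 44.8 CPM in WT-control (log2 fold change 1.32, standard error 0.09, adjusted p = 6.3e-05). The other reductase, *NIA2* (0.97), rose as well, as did *LBD38* (0.97) and *LBD39* (0.41), repressors of nitrate genes, while the chloroplast form *GS2* (-0.14) was not called. Of 16 phosphate starvation genes tested 4 fell (25%, against 7.18% of all genes tested) and none rose. The falls were in *SPX1* (-1.13), *G3Pp1* (-1.78), *PAP17* (-1.29) and *GDPD1* (-0.56). Without WT-control replicate 3, 2 fell, and without WT-control replicate 2, 7 did. *GDPD1* was not called with the block (adjusted p = 0.0586), with DESeq2, with all 12 libraries fitted together or with no filter on low counts. Without a single library it kept its call only when WT-control replicate 2 was omitted.

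For comparison with the lists below, 12.2% of all genes tested rose and 7.18% fell. Aquaporins set the water permeability of leaf membranes. Of 18 tested 2 fell (11.1%), *PIP2;5* (-0.56) and *PIP2;8* (-0.54), and none rose. Without a single library both kept their call only when WT-control replicate 1 was omitted. No fall was called without WT-control replicate 3, and the 4 falls without WT-control replicate 2 were in other members. Of 20 clock genes 2 fell, *PRR3* (-0.27) and *ELF4* (-0.31), or 10%, against 7.18% of all genes tested, and the median was -0.07. Neither was called when any 1 of the WT-drought libraries was omitted. *PRR3* also lost its call without WT-control replicate 3, and *ELF4* without WT-control replicate 1 or 2. Of 18 jasmonate genes tested 4 rose (22.2%) and none fell, *LOX6* (0.64), *LOX4* (0.93), *AOC3* (1.42) and *JAZ1* (0.88). Rises numbered 3 to 5 in the fits without a single library, and 4 of these genes fell when WT-control replicate 2 was omitted. Of 29 autophagy genes 6 rose (20.7%) and 1 fell (3.45%), with *ATG8E* (AT2G45170), a ubiquitin-like protein of the autophagosome, at 67, 68 and 69.2 CPM in WT-drought, against 33.3, 32.4 and 32.7 CPM in WT-control (log2 fold change 1.05, standard error 0.06, adjusted p = 3.8e-05). Of 14 senescence genes tested 1 rose (7.14%), *SAG21* (2.01), and 1 fell (7.14%), *NYC1* (-0.51). *SAG12*, the marker of late leaf senescence, was too low to be tested. Of 9 heat shock genes tested 1 rose (11.1%), *BIP3* (2.64), a chaperone of the endoplasmic reticulum, and none fell. No cell division gene of 11 and no reference gene of 10 was called, and 3 rose and 5 fell of the 215 tested genes described as ribosomal proteins, of which 19 fell without WT-control replicate 2.

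The largest changes came from these groups and from a few genes outside them. Beyond *NAS2*, *FMO1*, *PHI-1* and *ZIP9*, the 12 largest rises held AT5G51465, of unknown function, with 4.68, 7.26 and 6.0 CPM in WT-drought, against 0.430, 0.498 and 0 CPM in WT-control (log2 fold change 4.19, standard error 0.52, adjusted p = 0.000838), and AT3G13610, a 2-oxoglutarate dependent oxygenase, with 5.03, 7.59 and 4.46 CPM in WT-drought, against 0.376, 0.362 and 0.229 CPM in WT-control (log2 fold change 4.11, standard error 0.33, adjusted p = 0.000105). The glutamate receptor *GLR2.8* (AT2G29110) rose by 3.95, AT3G28510, an AAA-type ATPase, by 3.94, *ZAT7* by 3.53 and *AIG1*, induced by bacterial avirulence genes, by 3.45 on the log2 scale. *NAC090* (AT5G22380), a NAC transcription factor, had 14.2, 11.8 and 12.6 CPM in WT-drought, against 0.968, 1.4 and 0.573 CPM in WT-control (log2 fold change 3.67, standard error 0.25, adjusted p = 6.1e-05), and *MDHAR* (AT3G09940), which regenerates ascorbate, had 6.05, 12.6 and 16.4 CPM in WT-drought, against 1.56, 1.13 and 0.287 CPM in WT-control (log2 fold change 3.53, standard error 0.50, adjusted p = 0.00153). None of these had overlapping groups, as the rule for naming them required.

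Beside *XTH31*, *IAA29*, *FSD1*, *DREB1A*, *WSD1*, *PRE1*, *EXPA8*, *SAUR22* and *IAGLU*, the 12 largest falls held *SQP1*, AT5G24155 and AT5G54585. *SQP1* (AT5G24150, chr5:8172300-8175525), a squalene epoxidase relative, had 18.7, 14.5 and 8.33 CPM in WT-drought, against 64.1, 35.3 and 54.9 CPM in WT-control (log2 fold change -1.88, standard error 0.29, adjusted p = 0.00235). Its neighbour AT5G24155 (chr5:8179703-8181107), of the same family, had 3.12, 1.55 and 1.86 CPM in WT-drought, against 11.8, 7.65 and 9.92 CPM in WT-control (log2 fold change -2.17, standard error 0.27, adjusted p = 0.000896), and reads of these similar copies may have been shared. The library kit does not mark strand, so reads of genes that overlap on opposite strands cannot be told apart either. AT5G54585, of unknown function, fell to 8.3, 6.59 and 6.74 CPM in WT-drought, against 33.9, 22.5 and 21.4 CPM in WT-control.

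The drought difference in wild type was set against that in *MtPHD6* plants by the interaction over all 12 libraries, and the contrasts share no library. The log2 fold change with drought was higher in wild type for 1102 genes and lower for 271, 5.6% and 1.38% of the genes tested (6.98% together). The number lower was 142 when WT-drought replicate 1 was omitted. Among the 2406 genes that rose in wild type 891 also rose in *MtPHD6* plants, and of the 1413 that fell 625 also fell there. By the interaction 745 of those that rose had a higher drought difference in wild type, and 144 of those that fell a lower one. The share of all genes called in *MtPHD6* plants is not given here, so whether the shared calls exceed it was not tested.

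The lists differed in this respect. Of 20 touch and wound genes 11 had a higher drought difference in wild type, with *PHI-1* at an interaction of 9.99 (standard error 0.76, adjusted p = 1.8e-05) and *TCH4* at 6.71 (adjusted p = 2.2e-05), and none had a lower one. In *MtPHD6* plants 6 of these genes fell with drought and none rose. *PHI-1* had 3.42, 4.64 and 2.57 CPM in PHD6-drought, against 144, 102 and 154 CPM in PHD6-control (log2 fold change -5.21), and *TCH4* fell there as well (-3.76). Both interactions thus join a rise in wild type with a fall in *MtPHD6* plants, whose watered libraries were above those of wild type in *PHI-1*. Of 24 sugar starvation genes 14 were higher in wild type, with *DIN10* at 3.03 (adjusted p = 3.7e-05), and 3 rose and 2 fell in *MtPHD6* plants. Of 23 tested xyloglucan endotransglucosylases 15 were higher, and 13 fell and none rose in *MtPHD6* plants. Of the 17 SA synthesis genes none passed the test in either direction, against 6.98% of all genes tested. In wild type 13 of them rose, and in *MtPHD6* plants 9 rose and 1 fell, which is no test of likeness. Of the 21 SA response genes 4 had a higher drought difference in wild type and none a lower one, and 17 rose in wild type and 12 in *MtPHD6* plants. Of 11 zinc genes 5 were lower in wild type, among them *ZIP4* at -1.09 (adjusted p = 0.025) and *IRT3* at -1.3 (adjusted p = 0.00647), with log2 fold changes in *MtPHD6* leaves of 3.51 for *ZIP4* and 2.98 for *IRT3*.

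**Figure D5:**
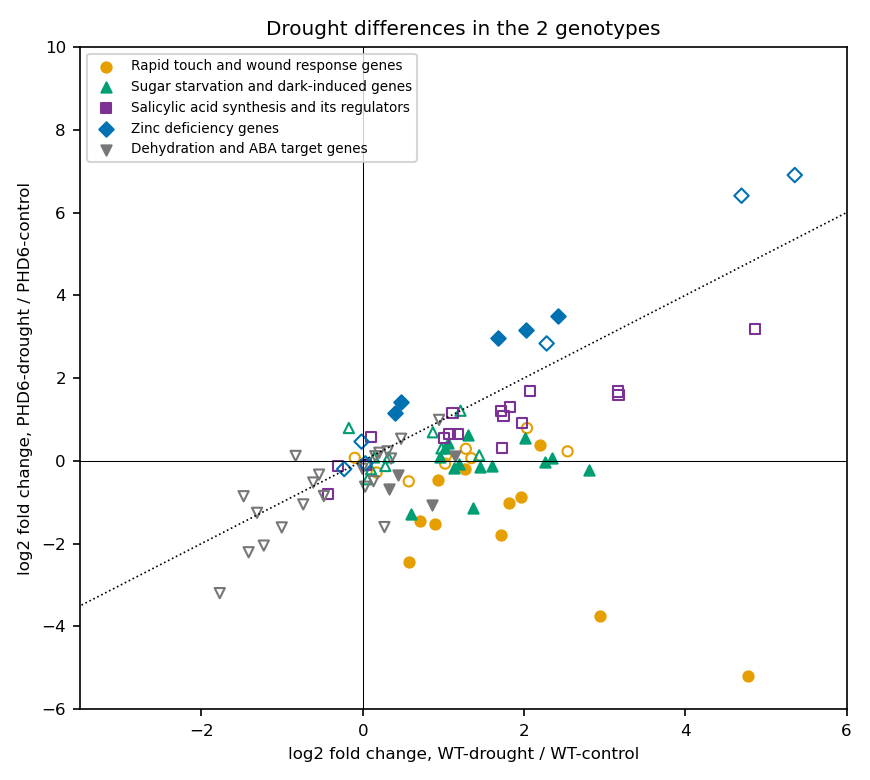
Log2 fold change with drought in wild type (horizontal axis) and in *MtPHD6* plants (vertical axis) for tested members of 5 lists, with the dotted line at equal values and filled symbols for genes whose interaction passed an adjusted p under 0.05. The filled zinc genes lie above the line and the filled touch and sugar starvation genes below it, and no salicylic acid synthesis gene is filled.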

How the data were processed

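RNA-seq counts of rosette leaves were analysed for 6 libraries, with 6 of *MtPHD6* plants for the interaction. The deposited counts per gene were made by the authors with HISAT2 2.0.5 and featureCounts 1.5.0-p3 (submitters' processing notes), which also name DESeq2 1.16.1. The genome build is not given in the sources used here, and gene positions equal those of TAIR10.1 (RefSeq) in 1044 of 1045 genes of a supplementary table that were compared. Entries with no gene name, 2021 in number and 0.387% to 0.463% of counts, were left out. Genes were kept by filterByExpr (minimum count 10) and tested with edgeR 4.0.16 in R 4.3.3 (quasi-likelihood test, TMM, Benjamini-Hochberg adjustment over 19681 genes, no block). The script was tested on simulated data. Alternatives were DESeq2 1.42.0, other scaling and filters, a fit of all 12 libraries, a replicate block, a fit with no organelle genes, and fits that omit 1 library. Replicate numbers are shared by the labels of both groups, which do not say what a number marks. Deviations from the group means correlated at r = 0.348, 0.149 and 0.142 between libraries of the same number, each over 0.1. Between libraries of different number r ran from -0.231 to 0.0974, the highest for WT-drought replicate 3 with WT-control replicate 2. By the rule of 0.1 the numbers were taken as possibly pairing the samples, by a small margin. The pairing rests on this check of the data alone, so the main calls use no block and the block was run as an alternative. Labels call replicates biological without naming separate plantings, so p-values measure the spread between these samples. Named genes were the 12 largest rises and 12 largest falls among called genes with at least 5 CPM in a group mean and no overlap, the 4 members with the smallest p in each list, and any member of lists of up to 28 genes. The members and lists were chosen with earlier results of these data known. Upstream sequence covered 250 bases before the annotated start of 36005 genes.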

Additional observations from a re-analysis of the deposited data

Results flagged for a closer look

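The drought difference of each gene named above was tested against that in *MtPHD6* plants by the interaction of genotype and drought (edgeR, adjusted p under 0.05), and the genes below passed. Values are the log2 fold change with drought in wild type minus that in *MtPHD6* plants. It was above 0 for the touch, zinc finger and WRKY genes *PHI-1* (9.99), *TCH4* (6.71), *SZF1* (3.51), *ZAT7* (3.28), *WRKY18* (3.22), *TCH2* (3.02), *STZ* (2.84), *ERF6* (2.42), *TCH3* (1.8), *WRKY33* (1.45) and *WRKY25* (1.12), and for the cell wall genes *EXLA1* (4.75), *EXLA3* (3.0), *XTH25* (3.0), *EXLA2* (2.3), *XTH16* (2.21) and *XTH24* (1.25). Genes of sugar starvation, amino acid use and autophagy above 0 were *DIN10* (3.03), *TPS8* (2.51), *ERD5* (2.31), *STP1* (2.27), *BT2* (1.88), *TPS11* (1.6), *ASN1* (1.47), *DYL1* (1.3), *TPS9* (1.27), *MCCA* (0.85), *TPS10* (0.67), *GDH2* (0.63) and *ATG8E* (0.61). Of ABA signalling, dehydration and wax genes, *CYP707A3* (3.35), *PYL5* (2.76), *PP2CA* (2.04), *RD26* (1.93), *MYB96* (1.2), *OST1* (1.18), *DEWAX* (1.06), *ERD15* (1.02), *COR47* (1.01) and *ERD4* (0.80) were above 0. The others above 0 were *GLR2.8* (2.86), *NAC090* (2.83), *NPR3* (1.24), *LBD38* (1.23), *NIA2* (0.98), *IAA18* (0.95), *LBD39* (0.90), *BCA6* (0.80), *CSD2* (0.77) and *CCS* (0.59). Below 0 were *PRE1* (-2.62), *EXPA1* (-2.28), *IAA29* (-2.26), *G3Pp1* (-1.78), *WSD1* (-1.43), *IRT3* (-1.3), *SAUR20* (-1.24), *ZIP5* (-1.14), *ZIP4* (-1.09), *ZIP1* (-0.94), *TT5* (-0.83), *HMA2* (-0.75), *MYB28* (-0.70), *ABI1* (-0.63), *PYL8* (-0.51) and *WRKY3* (-0.42), among them 5 zinc transport genes and growth genes that fell in wild type. The causes of these differences were not tested. Groups of 3 libraries are too small for a test of single outlying samples.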

How the results depend on the processing

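Without single libraries the number of genes that rose ran between 1595 and 2627 (2406 with all 6 libraries) and the number that fell between 658 and 2361 (1413). Upper-quartile scaling gave 2292 falls. With the replicate number as a block 2584 rose and 1636 fell, and the block moved no count of calls over all genes by more than 1.5 times. Among lists the block gave 5 falls in cuticular wax genes (3 without it), 8 in ribosomal protein genes (5), 2 in senescence genes (1), 2 in jasmonate genes (0), 1 each in Calvin cycle, nitrate and flower marker genes (0) and 3 in clock genes (2), and 2 rises in heat shock genes (1), 7 in nitrate genes (5) and 1 each in clock and photosystem genes (0). It also gave 20 rises in sugar starvation genes (17) and 16 in touch and wound genes (14), and smaller changes in further lists are not all given. Of the genes named above the block changed no call other than those given beside their values. By the rule of more than 2-fold with p not adjusted, the counts were 568 rises and 134 falls with a minimum of 1 CPM in all 6 libraries, against 953 and 275, and 848 to 1065 rises and 247 to 306 falls without single libraries. The interaction was above 0 for 846 to 1145 genes and below 0 for 142 to 324 genes without single libraries, with 142 below 0 without WT-drought replicate 1, 169 without PHD6-drought replicate 2 and 175 without PHD6-control replicate 3. Of 165 genes named above with a call, 132 had it in every alternative run and 20 lost it only where a library was left out, and 17 of 41 named genes without a call gained one in some alternative. None of the named genes with a call changed direction. The cause of these shifts was not tested. Fits with a library left out have fewer samples. Low genes such as *NAS2*, *ZIP9* and *FMO1* rest on few reads in watered leaves, and the depth limits their fold changes.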
